A study of Mus musculus with 12 samples.

Results

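The BAF chromatin remodelling complex was examined in the adult mouse hippocampus through 10 of its subunit genes, out of 24209 genes in the count tables. The genes were Actl6a, Actl6b, Smarca2, Smarca4, Smarcb1, Smarcc1, Smarcc2, Smarcd1, Smarcd3 and Smarce1, taken by symbol after the RefSeq entries of each gene had been summed. RNA came from the hippocampi of 12 male C57BL/6 mice in 2 experiments of 6 mice. In each, AAV5 vectors had been injected into the hippocampus at an age of 10 weeks, and the tissue was taken 10 weeks later. In the miR-9 experiment, 3 mice received GFP-miR9sp, a GFP transcript followed by binding sites that sequester miR-9 (called miR-9sp here), and 3 received GFP only (GFP Ctrl). In the miR-34 experiment, 3 mice received GFP-miR34sp (miR-34sp) and 3 other mice received GFP only. All 4 groups thus carried AAV5 and GFP, with GFP driven by a synapsin promoter that is active in neurons. The whole hippocampus was sequenced, so glial RNA and RNA of neurons without vector were counted too.

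BAF complexes use ATP to move nucleosomes, and many of their positions can be filled by alternative proteins of one gene family. When neural progenitors leave the cell cycle, the actin-related subunit Actl6a (BAF53a) is replaced by Actl6b (BAF53b), which is restricted to neurons. In that switch miR-9* and miR-124 are known to repress Actl6a through its 3′ UTR. miR-9* is the arm now written miR-9-3p, made from the same hairpin as miR-9 (miR-9-5p) but with another seed. Whether the miR-9 sponge also binds miR-9* was not measured in these data, and miR-124 was not inhibited in these mice.

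The seeds of these miRNAs are shown because they decide which subunit transcripts hold a match. The mature mouse sequences are from RefSeq (GRCm38.p6), 5′ to 3′, with the seed (bases 2 to 8) in capitals. miR-34a and miR-34b share a seed, whereas the arms of miR-9 do not.
miR-9-5p: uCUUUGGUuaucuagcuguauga
miR-9-3p: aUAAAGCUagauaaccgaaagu
miR-34a-5p: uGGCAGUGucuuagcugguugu
miR-34b-5p: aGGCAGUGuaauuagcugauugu

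Matches of 7 bases to these seeds were searched on the transcript strand in the longest 3′ UTR that GENCODE M1 gives for each gene (NCBIM37, also called mm9). The motif for miR-9-3p (AGCTTTA) was present in 4 of the 10 genes and in 9.83% of all 19915 genes with a 3′ UTR. The 4 genes were Actl6a, Smarca2, Smarcc1 and Smarce1. The motif for miR-9-5p (ACCAAAG) was present in 1 of the 10, Smarce1, and in 11.4% of all genes. The motif for miR-34 (CACTGCC) was also present in 1 of the 10, again Smarce1, and in 14% of all genes. The 3′ UTRs of the 10 genes were 129 bases (Smarcd3) to 2396 bases (Smarcc1) long, with a median of 893 bases over all genes. A match is a description of the letters and not evidence of binding.

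The matches are given with the bases around them, 5′ to 3′ on the transcript strand, with the motif in capitals. The Actl6a match lay 38 bases into a 3′ UTR of 366 bases. In the annotated Smarce1 transcript, an intron of the 3′ UTR separated the miR-34 motif from the others.
Actl6a, miR-9-3p (chr3:32625547-32625569, + strand): cacctcaacgtctgtAGCTTTAg
Smarca2, miR-9-3p (chr19:26851977-26851999, + strand): ttgtcatctagaactAGCTTTAg
Smarcc1, miR-9-3p, first match (chr9:110141102-110141124, + strand): gatagcaaagagcacAGCTTTAc
Smarcc1, miR-9-3p, second match (chr9:110141930-110141952, + strand): ttatgtgtattttaaAGCTTTAt
Smarce1, miR-9-3p (chr11:99071063-99071085, - strand): gctcaccaaagccatAGCTTTAa
Smarce1, miR-9-5p (chr11:99071074-99071096, - strand): gctcacgtggtgctcACCAAAGc
Smarce1, miR-34 (chr11:99076559-99076581, - strand): aatgaagcacacagcCACTGCCc

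Between 17279620 and 24428477 reads were counted per mouse in the miR-9 experiment and between 11029604 and 16934133 in the miR-34 experiment. The labels name the cell type as hippocampal neurons. Neuronal markers (6 genes such as Snap25 and Map2) summed to 474 to 572 RPKM over the 12 mice. RPKM was computed here as reads per kilobase of RefSeq entry, scaled to the counted reads of each mouse. Astrocyte markers (5 genes such as Gfap and Aqp4) summed to 578 to 681, so the RNA was not of neurons alone. Markers of progenitors and new neurons (9 genes, Eomes at 0 in every mouse) summed to 67.8 to 82.2. The 11 choroid plexus markers (9 with a mean above 10 reads, Folr1 at 0 in every mouse) differed most between mice. Their sum was 492 to 1843 in GFP Ctrl and 32.4 to 95.5 after miR-34sp, without overlap. For miR-9sp it was 22.2 to 661, which overlapped the 76.5 to 560 of its GFP Ctrl mice. The part of this difference in the values below was not tested.

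Of the 10 subunit genes, 8 had enough reads to be tested, and the other two had several RefSeq entries. Smarcb1, which encodes a core BAF subunit, had 2 entries and was listed at 0 reads in every mouse. Smarca4, which encodes the ATPase BRG1, had 3 entries and 6 reads over the 12 mice. The count of 0 for Smarcb1 would allow up to 3 reads, or 1.23e-05% to 2.72e-05% of the counted reads of a mouse, for counting error only. Smarcc2, which encodes a scaffold subunit, had 3 entries, of which NM_198160 was at 0 in every mouse while NM_001114096 and NM_001114097 had 1113 and 1855 reads. Smarca2, which encodes the alternative ATPase BRM, had 52533 reads on NM_011416 and 166 on the shorter NM_026003. Several entries did not always go with few reads, since Smarca2 had the most reads of the 10. The 6 other subunit genes had 1 entry each, and between 3400 and 39075 reads over the 12 mice.

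Read numbers were also compared by the number of entries with 21 further BAF and PBAF genes added, from Arid1a to Ss18l1. Over the 31 genes together, the 21 with 1 entry had a median of 21302 reads (1572 to 470222). The 10 with several entries had a median of 428 (0 to 52699), and 16 of their 28 entries were at 0 in every mouse. Ss18, with 4 entries, was among those at 0, whereas Bcl11a, also with 4, had 10280 reads, more than some genes with 1 entry. Over all coding genes, the mean read number was above 10 for 64.5% of genes with 1 entry, 38.1% of genes with 2 and 31.2% of genes with 3 or more. The rule for reads that fall on several entries of a gene is not given in the sources used here. For these reasons Smarca4 and Smarcb1 are given no level, and the levels of Smarca2 and Smarcc2 are values for the counted reads only. Reads on Actl6a and Smarcd3 could be affected in another way, since their 3′ UTRs overlap Mrpl47 and Chpf2 on the opposite strand. Smarcd1 is overlapped by Gm17349 and Gm17241 outside its 3′ UTR. No source used here says whether strand was counted.

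**Figure D1:**
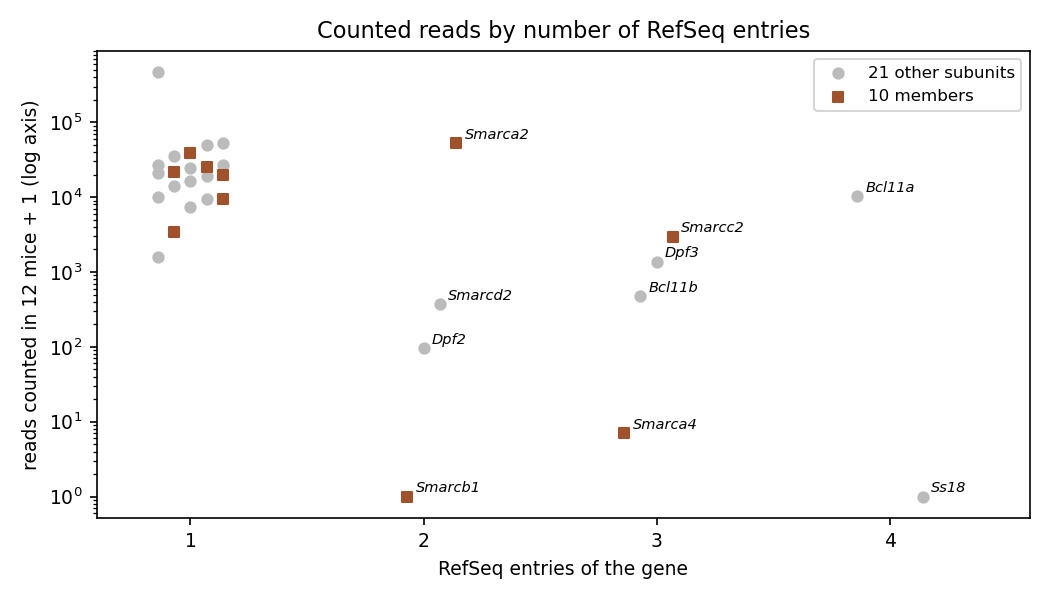
Reads counted in the 12 mice, plus 1, on a log axis against the number of RefSeq entries of each of the 10 subunit genes (squares) and 21 further subunits (circles), with points spread sideways for legibility. Genes with 1 entry lie at 1572 reads or more, while Smarcb1 and Ss18 are at 0 and Smarca4 at 6.

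Among the 8 subunits that could be measured, Actl6b had the highest level and Smarcc2 the lowest. The values of Smarca2 and Smarcc2 are for their counted reads only, so their places in the order rest on those. Levels are in RPKM, the only scale used here to compare genes. Over the 12 mice the mean was 69.6 for Actl6b, 61 for Smarcd1, 57.4 for Smarcd3, 45.4 for Smarca2, 22.5 for Smarcc1, 17.2 for Smarce1, 8.65 for Actl6a and 3.05 for Smarcc2. In each of the 12 mice every gene was above the next in this order. Across mice, the ranges of Actl6b and Smarcd1 and those of Smarcd1 and Smarcd3 overlapped, and the other neighbours in the order did not.

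**Figure D2:**
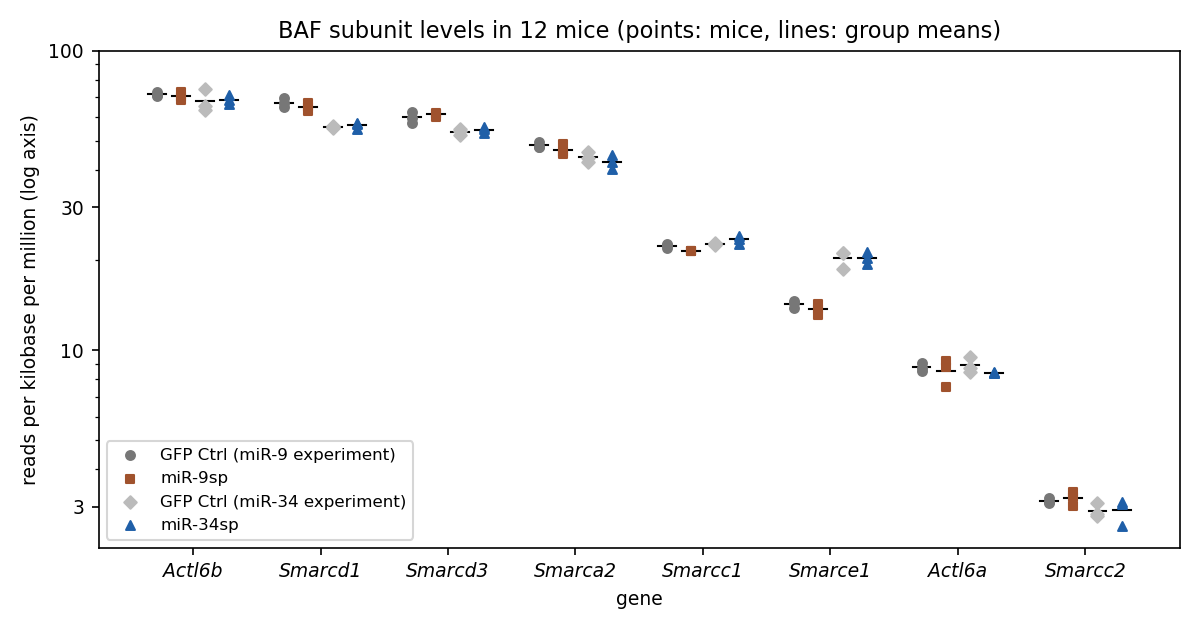
Level of the 8 measurable BAF subunits in RPKM (log axis), with 1 point per mouse and a line at each group mean (n = 3). The levels of Smarca2 and Smarcc2 are for their counted reads only. Actl6b lies at 63.5 to 74.4 and Actl6a at 7.52 to 9.52, and Smarce1 at 13.1 to 14.6 for miR-9 mice, below its 18.7 to 21.3 for miR-34 mice.

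Actl6b (chr5:137994745-138010810, + strand, NCBIM37), the neuronal actin-related subunit, differed little between sponge and GFP Ctrl mice. In the miR-9 experiment its level was 72.6, 70.8 and 71.1 in the GFP Ctrl mice and 68.7, 72.8 and 70.2 after miR-9sp. The groups overlapped, with means of 71.5 ± 0.937 and 70.6 ± 2.05 (SD, n = 3 each). In the miR-34 experiment it was 63.5, 65.2 and 74.4 in GFP Ctrl and 66.3, 68.7 and 71 after miR-34sp, and these groups overlapped too. edgeR's quasi-likelihood test, on counts scaled by TMM, gave a fold of 1 after miR-9sp with a 95% interval of 0.947 to 1.06. After miR-34sp the fold was 1.01 (0.919 to 1.11). The adjusted p (Benjamini-Hochberg over all genes tested) was 0.996 and 0.985.

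Actl6a (chr3:32607468-32625890, + strand), the progenitor form and the gene with the miR-9-3p match shown above, was present at a lower level. It was 9.07, 8.5 and 8.75 in the GFP Ctrl mice of the miR-9 experiment and 8.79, 9.18 and 7.52 after miR-9sp. The miR-9sp mice lay on both sides of the GFP Ctrl mice, and the mouse with 7.52 was the lowest of all 12. In the miR-34 experiment it was 8.75, 8.45 and 9.52 in GFP Ctrl and 8.38, 8.43 and 8.41 after miR-34sp. On this scale all 3 miR-34sp mice were below the 3 GFP Ctrl mice, the nearest by the difference between 8.43 and 8.45, and with TMM-scaled counts the groups overlapped. The fold was 0.984 (95% interval 0.87 to 1.11, edgeR adjusted p = 0.987) after miR-9sp and 0.94 (0.827 to 1.07, edgeR adjusted p = 0.92) after miR-34sp. In RNA of the whole hippocampus, a rise of Actl6a by more than 1.11 times after miR-9sp thus lay outside the interval, and smaller rises lay inside it. In whole tissue, fewer cells that express a gene and less of its RNA per cell cannot be told apart.

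The ratio of Actl6b to Actl6a per kilobase was taken in each mouse, and it does not depend on how a library is scaled. In whole tissue it can reflect the share of neurons as well as the switch within them, and these cannot be told apart. The ratio was 7.26 to 9.34 over the 12 mice, with a median of 7.97. On the log2 scale the ratio was 3.00, 3.06 and 3.02 in GFP Ctrl and 2.97, 2.99 and 3.22 after miR-9sp, so the groups overlapped. The difference of means was 0.032 (exact permutation test, two-sided p = 1). In the miR-34 experiment the ratio was 2.86, 2.95 and 2.97 in GFP Ctrl and 2.98, 3.03 and 3.08 after miR-34sp. All 3 miR-34sp mice were above the GFP Ctrl mice, by 0.10 on average, and the exact permutation p of 0.1 was the smallest that 3 mice against 3 can give. This was 1 of 6 such ratio tests, none of which could pass 0.05.

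The other alternative subunits were compared in the same way. The log2 ratio of Smarcd3 to Smarcd1, which encode alternative forms of a subunit that contacts transcription factors, was -0.16 ± 0.092 (SD, n = 3) in GFP Ctrl and -0.082 ± 0.03 (SD, n = 3) after miR-9sp. With miR-34sp the ratio in GFP Ctrl and sponge mice was -0.051 ± 0.028 and -0.051 ± 0.053 (SD, n = 3 each). The exact permutation p was 0.3 and 1. For Smarcc2 to Smarcc1 the ratio rests on the counted part of Smarcc2 only. It differed from GFP Ctrl by 0.089 after miR-9sp and by -0.041 after miR-34sp (exact permutation test, p = 0.3 and 0.8). The ratio of Smarca4 to Smarca2 could not be taken.

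**Figure D3:**
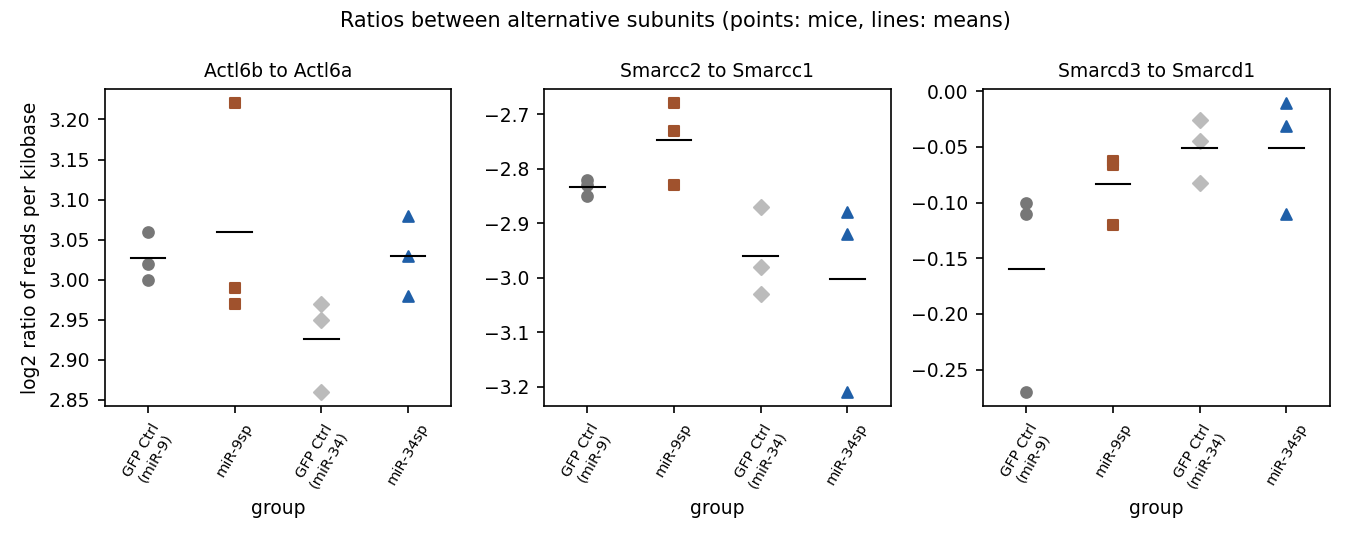
Log2 ratio of reads per kilobase between alternative subunits in each mouse, in 3 panels with axes of their own that do not start at 0, with lines at group means (n = 3). In the Actl6b to Actl6a panel the miR-34sp mice (2.98 to 3.08) lie above their GFP Ctrl mice (2.86 to 2.97), and the miR-9sp mice overlap theirs.

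Smarca2, the measurable ATPase, stood at 47.6, 49.7 and 47.7 in GFP Ctrl and 45.1, 45.8 and 49 after miR-9sp. The miR-9sp group reached both lower and into the GFP Ctrl range. For miR-34sp the values were 42.4, 45.9 and 43.8 in GFP Ctrl against 40.2, 42.5 and 44.7 after miR-34sp, again with overlap. The log2 fold change was -0.032 ± 0.048 (standard error, edgeR adjusted p = 0.973) after miR-9sp and -0.056 ± 0.048 (edgeR adjusted p = 0.917) after miR-34sp.

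Smarcc1 encodes the scaffold subunit BAF155 and holds the pair of miR-9-3p matches. Its level was 21.9, 22.5 and 22.6 in GFP Ctrl and 21.5, 21.4 and 21.5 after miR-9sp. All 3 miR-9sp mice were below the GFP Ctrl mice on this scale. With TMM-scaled counts the groups overlapped, and the log2 fold change was -0.035 ± 0.035 (standard error). On the scale of total counts, the groups did not overlap for 11% of all 13045 genes tested in the miR-9 experiment and for 11.6% of 12492 in the miR-34 experiment. With TMM these shares were 10.3% and 11.5%. Of the 8 subunits, 1 was separated in each experiment on total counts (Smarcc1 and Actl6a) and 0 with TMM, which is near those shares. In miR-34sp mice Smarcc1 was 23.6, 22.7 and 24, against 22.7, 22.5 and 22.8 in GFP Ctrl, with overlap. The edgeR adjusted p was 0.97 for miR-9sp and 0.92 for miR-34sp.

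Smarce1 encodes a DNA-binding subunit (BAF57) and was the member with matches to all of the searched seeds. Its level was 14.6, 14.4 and 13.8 in GFP Ctrl and 13.7, 14.3 and 13.1 after miR-9sp. After miR-34sp it was 21.3, 19.4 and 20.4, against 21.2, 21.1 and 18.7 in GFP Ctrl. In each experiment the groups overlapped. The fold was 0.977 (95% interval 0.905 to 1.05) after miR-9sp and 0.999 (0.911 to 1.1) after miR-34sp. The edgeR adjusted p was 0.973 and 0.999.

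Smarcd1, Smarcd3 and Smarcc2 had log2 fold changes between -0.026 and 0.053 in the 2 experiments. Smarcd1 had a level of 64.8 to 69.3 in GFP Ctrl and 62.8 to 66.9 after miR-9sp, and 55.3 to 56 in GFP Ctrl and 55 to 57.4 after miR-34sp. Smarcd3 was 57.6 to 62.6 in GFP Ctrl and 60.2 to 62 after miR-9sp, and 52.3 to 55 in GFP Ctrl and 53.2 to 55.6 after miR-34sp. Sponge mice overlapped GFP Ctrl mice for each of them. Smarcc2 had the fewest reads of the 8, and its fold after miR-34sp was 1.01 with 95% bounds of 0.867 and 1.18.

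By edgeR's test, 0 of the 8 measured subunits passed an adjusted p of 0.05 in either experiment, and 0 had an unadjusted p under 0.05, in edgeR or in DESeq2. Among all genes the share with an adjusted p under 0.05 was 0% after miR-9sp (0 of 13045 in edgeR, 2 in DESeq2) and 0.064% after miR-34sp (8 of 12492 in edgeR, 36 in DESeq2). With 1 mouse left out the miR-34sp count ran from 0 to 57, which was reached without GFP Ctrl replicate 10, and members made up 0 of it each time. With an unadjusted p under 0.05, edgeR called 4.73% (617 genes) and 6.43% (803 genes). After miR-9sp 2.47% of all genes were higher at that limit. By the study's criterion, an unadjusted p under 0.05 with a minimum ratio of means, 0 of the 8 were called as well. Applied here to genes summed by symbol, that criterion called 1.44% and 1.99% of all genes. Counts of 0 among 8 genes are near the shares found here. For both experiments the paper reports lower shares of altered genes. The median log2 fold change of the 8 was -0.025 after miR-9sp, with 3 above and 5 below 0, and 0.015 after miR-34sp, with 5 above and 3 below. Over all genes tested it was -0.00062 and -0.00067.

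**Figure D4:**
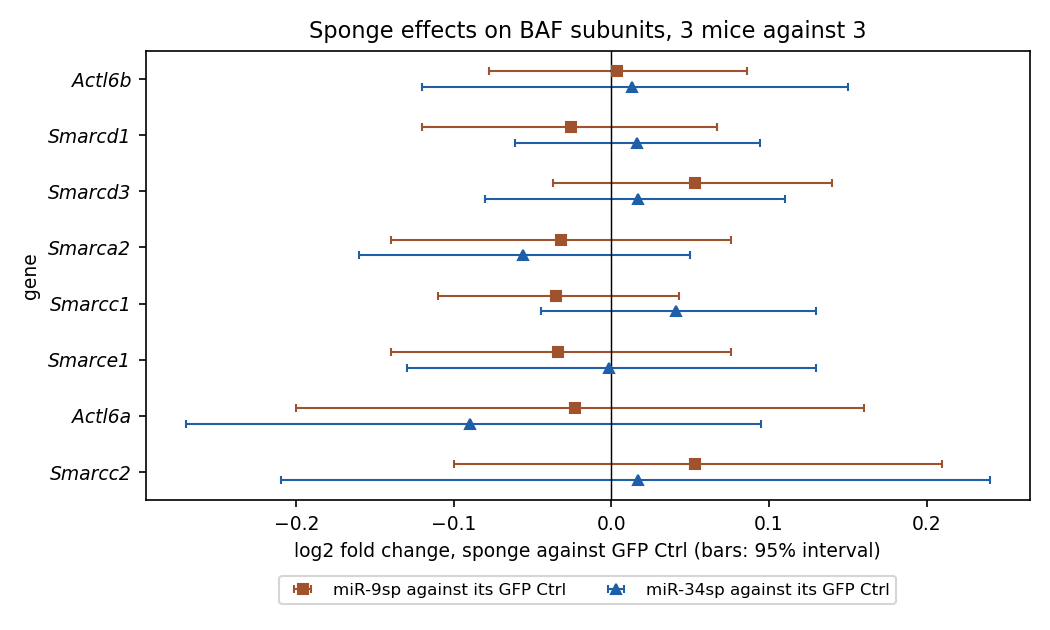
Log2 fold change of each measured subunit in sponge mice against the GFP Ctrl mice of the same experiment, from edgeR's model, with 95% intervals (3 mice against 3). All 16 intervals include 0, and those of Actl6a (-0.20 to 0.16 after miR-9sp) and Smarcc2 are wider than that of Actl6b (-0.078 to 0.086 after miR-9sp).

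The sponge effects were also compared with each other in 1 model of the 12 mice. None of the 8 subunits (0) had an adjusted p under 0.05 for the difference in edgeR, against 0% of 12835 genes, and 0 had an unadjusted p under 0.05, against 6.1% of genes. The lowest adjusted p was 0.845, that of Smarcc1, whose effect was lower after miR-9sp than after miR-34sp by a log2 difference of -0.075 (95% interval -0.18 to 0.03). With total counts in place of TMM, the edgeR unadjusted p of this Smarcc1 difference was 0.0447, where 560 of 12835 genes were lower at an unadjusted p under 0.05. For Actl6a the difference was 0.069 (-0.17 to 0.31). A p above the threshold does not show that the effects were equal, and the intervals give the differences that remain possible.

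Levels differed between the experiments for some subunits, in sponge and GFP Ctrl mice alike. Smarce1 had a mean of 14.3 ± 0.456 in the GFP Ctrl mice of the miR-9 experiment and 20.4 ± 1.39 in those of the miR-34 experiment (SD, n = 3 each), a ratio of 1.42. Smarcd1 went the other way, with 67.1 ± 2.26 and 55.6 ± 0.331 (SD, n = 3 each), a ratio of 0.829. Smarcd3 (0.895) and Smarca2 (0.911) were likewise lower in the miR-34 experiment without overlap between the GFP Ctrl sets. In all 4 of the 8 subunits did not overlap, against 43.6% of 12835 genes, so this share is near that of all genes. Actl6a (1.02) and Actl6b (0.947) overlapped. The word totRNA occurs in the headers of the miR-9 files alone, and the mice, libraries and depth of the experiments differed too, so the sources of these differences cannot be told apart.

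Other subunits that swap in neurons were examined from a list of 21 further BAF and PBAF genes. Of these, 20 were tested in the miR-9 experiment and 19 in the miR-34 experiment, and 0 had an adjusted p under 0.05 in edgeR. The median log2 fold change was 0.027 after miR-9sp and 0.02 after miR-34sp. At an unadjusted p under 0.05 there were 0 after miR-9sp. After miR-34sp there were 3, all higher, where 2.71% of all genes were higher at that limit and 3.72% lower. They were Bcl11a, Ss18l1 and Bicral. In DESeq2 the unadjusted p was 0.00881 for Bcl11a, 0.0981 for Ss18l1 and 0.103 for Bicral, so 1 of the 3 was left, and by the study's criterion 0 were called. With 1 mouse left out, the unadjusted p of edgeR ran from 0.000941 to 0.0598 for Bcl11a, from 0.0133 to 0.2 for Ss18l1 and from 0.0137 to 0.181 for Bicral. Sponge and GFP Ctrl mice did not overlap for 4 of the 19 after miR-34sp (Pbrm1, Ss18l1, Actb and Bicral, all higher, on both scales), beside the 11.5% of all genes given above for TMM-scaled counts. After miR-9sp they did not overlap for Phf10 on both scales and for Bcl7b with TMM alone, of 20, where the share of all genes was 10.3%.

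Phf10 (BAF45a) is the progenitor form of a PHD finger subunit that Dpf1 and Dpf3 (BAF45b and BAF45c) replace in neurons. Phf10 was 23.8, 25.7 and 24.6 in GFP Ctrl and 22.6, 22.6 and 22.5 after miR-9sp, with the 3 miR-9sp mice below the GFP Ctrl mice on either scale. Its log2 fold change was -0.11 ± 0.05 (standard error, edgeR unadjusted p = 0.0533, adjusted p = 0.97). For this effect the unadjusted p was 0.176 in DESeq2 and 0.026 in edgeR with total counts. With 1 mouse left out, that of edgeR ran from 0.0343 to 0.183. After miR-34sp Phf10 was 20.8, 19.8 and 20.5 against 21, 19.5 and 20.2. Dpf1 was 36 to 37.4 in GFP Ctrl and 36.4 to 37 after miR-9sp, and 32.3 to 36.7 in GFP Ctrl and 32.1 to 39.4 after miR-34sp.

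Dpf3, with 3 entries and all its reads on 1 of them, was low, as a value for the counted reads only. It was 2.32, 1.87 and 1.95 in GFP Ctrl and 2.12, 2.57 and 2.55 after miR-9sp, and 2.18, 2.4 and 2.27 in GFP Ctrl and 2.02, 2.3 and 1.69 after miR-34sp. Each sponge group overlapped its GFP Ctrl group. The difference between the sponge effects was 0.44 on the log2 scale (95% interval 0.036 to 0.84), with an edgeR unadjusted p of 0.0346 and an adjusted p of 0.784. Over all genes, 3.55% were higher at an unadjusted p under 0.05 in edgeR. In DESeq2 the unadjusted p of the Dpf3 difference was 0.0665. With 1 mouse left out, that of edgeR ran from 0.0118 to 0.0883.

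Ss18l1 (CREST), which takes the place of Ss18 in neurons, was 22.5, 21.9 and 22.4 in GFP Ctrl and 25.8, 22.6 and 23.9 after miR-34sp. The groups did not overlap, and the log2 fold change was 0.11 ± 0.049 (standard error, edgeR unadjusted p = 0.0473, adjusted p = 0.77). After miR-9sp it was 25.2, 24.7 and 24.9 against 26.2, 25.7 and 24.9. Bicral, a subunit of non-canonical BAF, had 18.6, 19 and 17.4 after miR-34sp and 16.8, 17.2 and 17.2 in GFP Ctrl, without overlap (log2 fold change 0.10 ± 0.044, edgeR unadjusted p = 0.0427, adjusted p = 0.764). Bcl11a, a zinc finger protein found in BAF complexes, had 9.55, 9.17 and 7.5 after miR-34sp and 7.98, 7.16 and 6.66 in GFP Ctrl. Its groups overlapped, and the log2 fold change was 0.27 ± 0.091 (standard error, edgeR unadjusted p = 0.0128, adjusted p = 0.617). Nearly all Bcl11a reads were on 1 of its 4 entries.

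The genes most like the members of the switch across mice were found on log2 TMM-scaled counts with the mean of each experiment subtracted, among 9242 genes with a mean above 100 reads. For Actl6a these were Acss1 (Pearson's r = 0.90), Fam107a (0.89) and Col6a1 (0.88). For Actl6b they were Pdap1 (0.93), Foxk2 (0.90) and Hk1 (0.89). These are the highest of 9242 values over 12 mice that share libraries and depth, so they are given as a description. Actl6a and Actl6b had an r of 0.36 with each other. Among the measured members, the lowest r of Actl6b was -0.71, with Smarce1.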

How the data were processed

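The deposited values are raw counts of 50 bp single end reads per RefSeq entry for each mouse, beside the entry length in bases, and the authors' scaling is not in them. The methods name mm9, whereas the submitters' processing notes name mm10 and STAR. The counting tool is not given in the sources used here. The methods describe poly-A enrichment. GFP Ctrl mice whose titles name no experiment were assigned to the miR-9 experiment, since the methods give 3 to each. Nothing pairs sponge and GFP Ctrl mice.

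Of 32850 entries, 98.7% were joined to a symbol and summed to 24209 genes. Two-sided quasi-likelihood tests used edgeR 4.0.16 (R 4.3.3) with TMM, on genes with a mean above 10 reads after scaling to the average total, for each experiment alone, and adjusted p over all genes tested. The difference of effects used 12 mice. DESeq2 1.42.0 was an alternative. Intervals are the log2 fold change and its standard error with the model's degrees of freedom. Levels and exact permutation tests used Python 3.11.15, pandas 2.3.3 and scipy 1.17.1. Coordinates and 3′ UTRs are those of GENCODE M1 on NCBIM37. The tables used here gave no miR-124 sequence, so its matches were not searched.

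The members, the lists of further subunits and markers, and the tests were chosen with earlier results of these data known. Named genes were the 10 members, the listed progenitor and neuronal forms, any listed subunit with an unadjusted p under 0.05, and the 3 genes most like Actl6a and Actl6b. The code was tested on simulated data. Alternatives were DESeq2, other size factors, no filter on low counts, 1 model of 12 mice, single entries, the study's criterion, another length and each mouse left out in turn.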

Additional observations from a re-analysis of the deposited data

How the results depend on the processing

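No member passed the threshold under any alternative, in 136 fold changes with every mouse kept and 192 with 1 mouse left out. The largest absolute log2 fold change among these was 0.14. For single entries, only the entry with the most reads of each gene was among them. With that entry alone (NM_001114097), Smarcc2 was 0.14 after miR-34sp, against 0.017 with its entries summed. Its other counted entry, NM_001114096, was not among the 136. It had 67, 67 and 71 unscaled reads in GFP Ctrl and 66, 89 and 53 after miR-34sp. No paired analysis was possible because no label pairs sponge and GFP Ctrl mice, which share fewer than 2 numbers. Of the 136, 5 changed sign. Scaled by total counts alone, Actl6b was -0.018 after miR-9sp, Smarce1 0.0025 after miR-34sp, and the Smarca2 difference of effects -0.0022. By the study's criterion Actl6b was -0.018 and Smarce1 0.0017. Of the further subunits named, the Dpf1 difference changed sign with total counts (-0.015) and with every gene that had a read (-0.002). With 1 mouse left out, signs of members and further subunits changed for Actl6a (-0.069 to 0.045), Actl6b (-0.0064 to 0.025) and Ss18l1 (-0.035 to 0.0025) after miR-9sp. After miR-34sp they changed for Actl6b (-0.029 to 0.09), Smarcc2 (-0.025 to 0.089), Smarcd3 (-0.0028 to 0.042), Smarce1 (-0.059 to 0.03), Dpf1 (-0.066 to 0.067) and Phf10 (-0.019 to 0.032). Differences of effects changed sign for Actl6b (-0.082 to 0.036), Smarca2 (-0.024 to 0.066), Smarcc2 (-0.034 to 0.081), Smarce1 (-0.06 to 0.029) and Dpf1 (-0.041 to 0.092). With every mouse kept, levels and ratios moved by less than the spread between mice. Leaving out a mouse changed the sign of some differences in log2 ratio. Actl6b to Actl6a after miR-9sp ran from -0.05, without miR-9sp replicate 23, to 0.078, and Smarcc2 to Smarcc1 after miR-34sp from -0.1 to 0.064, without miR-34sp replicate 18. Smarcd3 to Smarcd1 ran from 0.026, without GFP Ctrl replicate 16, to 0.11 after miR-9sp and from -0.02 to 0.03 after miR-34sp. Actl6b to Actl6a after miR-34sp (0.072 to 0.13) and Smarcc2 to Smarcc1 after miR-9sp (0.055 to 0.13) were positive each time.

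Counts over all genes did depend on the processing, and the cause was not tested. After miR-9sp the 0 genes called by edgeR became 2 in DESeq2, 2 with every gene that had a read, 188 by the study's criterion (1.44% of genes, 0 of them members) and 0 to 1 with a mouse left out. After miR-34sp the 8 became 36 in DESeq2, 4 with DESeq2 size factors, 4 with total counts, 81 with every gene that had a read, 0 in 1 model of 12 mice, 4 with single entries, 249 by the study's criterion (1.99%, 0 of them members) and 0 to 57 with a mouse left out. It was 57 without GFP Ctrl replicate 10, 1 without GFP Ctrl replicate 8, and 0 without GFP Ctrl replicate 4 or any of the miR-34sp mice. For the difference between the sponge effects, 0 became 5 in DESeq2, 4 with every gene that had a read and 0 to 1 with a mouse left out. In the mouse with the fewest reads, Smarcc2 had 146 and Actl6a 190, the lowest of the 8 members tested.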
